A study of Mus musculus with 6 samples.

Results

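The genes described here are 9 transcription factors of secretory cell differentiation, out of 19505 genes measured on 6 arrays of mouse embryonic salivary glands. They are Bhlha15 of the basic helix-loop-helix family, Creb3l1, Creb3l4 and Xbp1 of the basic leucine zipper family, Spdef, Ehf, Elf3 and Elf5 of the ETS family, and the forkhead factor Foxa1. All 9 were found by their gene symbol, each with 1 probe set. The set was chosen by their roles and with the expression values of these same arrays known, among them the difference between glands given TGF-β1 and control glands. The members' own differences are therefore given as a description, without a p-value.

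Glands were taken from mouse embryos at a stage written as T13 and kept in culture for 72 hours, 3 samples with TGF-β1 and 3 labelled control. TGF-β1 is a secreted growth factor that signals through cell surface receptors and Smad proteins. No strain, no dose of TGF-β1 and no gland type is given in the sources used here, and nothing says whether replicates were separate cultures, so a p-value here covers the scatter of the 6 arrays alone, which could be technical. The values are log2 expression values, on which 1 unit is a doubling.

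Secretory cells of exocrine glands carry a large endoplasmic reticulum, in which secreted proteins are made and folded, and a pool of granules that stores them. Bhlha15 (also called Mist1) and Xbp1 are known in mice to enlarge this apparatus, and the CREB3 factors are held in the membrane of the endoplasmic reticulum until they are cut and freed to enter the nucleus. Ehf, Elf3, Elf5 and Spdef are the ETS factors found mainly in epithelia, and Foxa1 is a pioneer factor that opens closed chromatin.

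One array stood apart. Control 3 correlated with the other arrays over all genes at a Pearson r of 0.550 to 0.601, while the highest r of each other array lay between 0.953 and 0.990. Its values were compressed, with an interquartile range of 2.05 against 3.17 to 3.26, and Actb, which encodes β-actin, was at 8.91 there and at 12.70 to 13.34 elsewhere. The group comparison was therefore fitted with limma and a weight for each array, and these weights came to 0.398 for TGF-β1 3, 0.0338 for control 3 and 1.65 to 4.52 for the other arrays. "Rose" and "fell" are used below for genes outside the set that passed in this fit at an adjusted p under 0.05. The unweighted fit of the 6 arrays called 0 genes (389 at an unadjusted p under 0.05), so none of these calls is made when all 6 arrays count equally. Leaving out control 3 alone, without weights, also gave 0 called genes (1487 at an unadjusted p under 0.05). A second adjusted p, that of the 4-array fit, comes from an unweighted limma fit of TGF-β1 1 and 2 against controls 1 and 2. That fit leaves out TGF-β1 3 and control 3, the arrays of lowest weight, and uses the same values, so it is no independent check.

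Over the 9 factors the median difference, TGF-β1 minus control, was 1.88 log2 units in the array-weighted fit, against 0.01 over all genes. In 7 of the 9 the 3 TGF-β1 arrays all lay above the 3 controls, where 5.8% of all genes showed that (11.6% in either direction). Leaving out control 3 cannot make such groups overlap, so these 7 had to stay apart without it. No further member joined them, where 12.8% of all genes were then higher without overlap (25.2% in either direction). The 2 whose groups overlapped were Creb3l1 and Elf3. In whole glands, more cells of a type and more RNA per cell cannot be told apart. Of the 9, 6 were called higher in the array-weighted fit and 0 lower, beside 3.45% of all genes called higher (6.88% in either direction). The unweighted fit called 0 of them, and so did the unweighted fit without control 3. In the 4-array fit 5 were called higher beside 1.14% of all genes (2.59% in either direction). Since the set was chosen with this comparison in view, these shares describe it and support nothing.

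**Figure D1:**
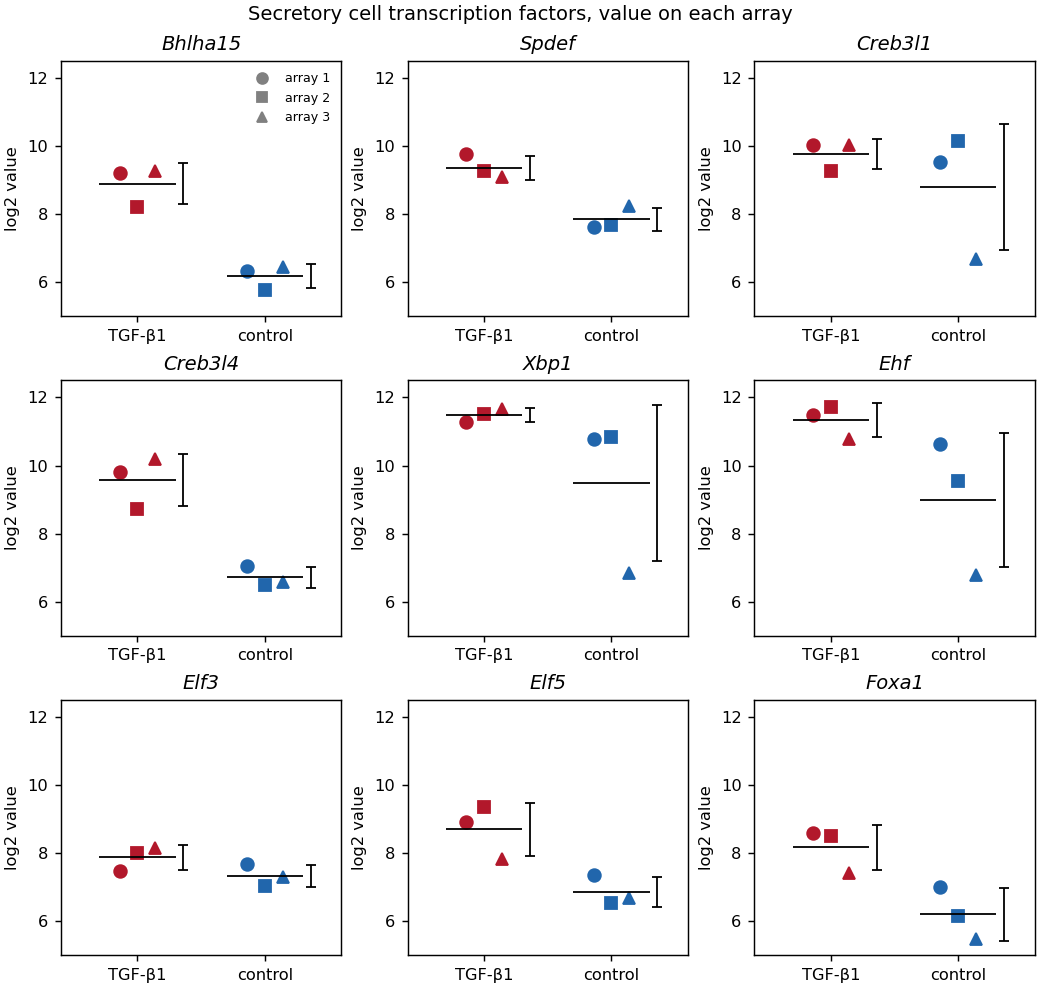
Log2 value (y axis) of each of the 9 factors on each array, TGF-β1 left and control right; circles, squares and triangles are arrays 1, 2 and 3, the line is the group mean and the bar beside it the SD (n = 3). Control 3 lies far below controls 1 and 2 for Creb3l1, Xbp1 and Ehf, at 6.69 to 6.84, and beside them for Bhlha15, Creb3l4 and Elf3.

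Bhlha15 (Entrez gene 17341, chromosome 5), which drives the maturation of acinar and other enzyme-secreting cells, had the largest array-weighted difference of the 9. It was at 9.20, 8.21 and 9.27 in TGF-β1 glands 1 to 3, against 6.33, 5.77 and 6.43 in controls 1 to 3. The groups lay well apart, and the lowest TGF-β1 gland was the second. The means were 8.89 ± 0.60 in TGF-β1 glands and 6.18 ± 0.36 in controls (SD, n = 3 each), and the array-weighted difference was 2.95 ± 0.26 (SE), or 7.74-fold. Control 3 mattered little for this gene: without it the difference was 2.84 ± 0.37.

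Creb3l4 (Entrez gene 78284, chromosome 3), a CREB3 factor, followed Bhlha15 on most arrays, least so on control 3. It was at 9.81, 8.71 and 10.20 in TGF-β1 glands 1 to 3, against 7.06, 6.50 and 6.57 in the controls. As for Bhlha15, the groups did not overlap and the second TGF-β1 gland was the lowest. Its array-weighted difference was 2.82 ± 0.29 (SE), and 2.80 ± 0.45 without control 3.

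Likeness between genes was measured as the root mean square difference of their log2 values over the 6 arrays, after each gene's own mean was subtracted. By this measure Creb3l4 was the nearest of all named genes to Bhlha15, and Bhlha15 the nearest to Creb3l4, with a difference of 0.25 log2 units over 6 arrays and 0.14 over the 5 without control 3, where each again ranked 1 for the other. The points behind this are few and include the group difference itself. Next nearest to Bhlha15 were Esp8, a peptide of a family secreted by exocrine glands, at 0.38, and Lrrc26, a subunit of large-conductance potassium channels, at 0.46. Without control 3 Esp8 ranked 3 and Lrrc26 9. Next nearest to Creb3l4 were Cthrc1, a secreted collagen triple helix protein, at 0.47, and Smim22, a small membrane protein, at 0.50. Their ranks without control 3 were 5 and 4.

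**Figure D2:**
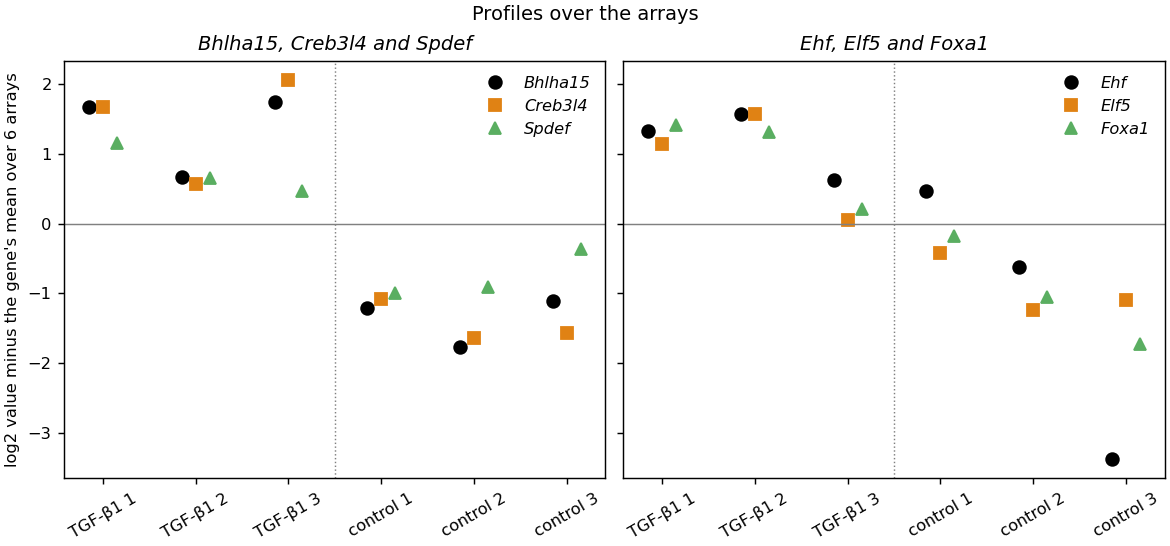
Log2 value minus the gene's own mean over the 6 arrays (y axis) for each array (x axis, TGF-β1 left of the dotted line, control right). Bhlha15 and Creb3l4 lie close together on most arrays, least so on control 3. Ehf, Elf5 and Foxa1 are lower on TGF-β1 3 than on TGF-β1 1 and 2 and part from each other on control 3.

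Spdef (Entrez gene 30051, chromosome 17), which in mice is needed for mucus-secreting goblet cells, was at 9.76, 9.26 and 9.08 in TGF-β1 glands 1 to 3, against 7.61, 7.69 and 8.24 in controls 1 to 3. The groups did not overlap, and control 3 was the highest control. The array-weighted difference was 1.88 ± 0.17 (SE), or 3.69-fold, and it was 1.52 ± 0.35 in the unweighted fit. The profiles nearest to it were those of Grb7, an adaptor of receptor tyrosine kinases, at 0.23 log2 units, Mlph, which links vesicles to myosin, at 0.24, and Slc12a8, a membrane transporter, at 0.26. Without control 3 these ranked 3, 2 and 1.

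Xbp1 (Entrez gene 22433, chromosome 11), the transcription factor that the stress sensor Ire1 activates by splicing its transcript, differed by less. It was at 11.28, 11.50 and 11.67 in TGF-β1 glands 1 to 3, against 10.78, 10.83 and 6.84 in controls 1 to 3. Controls 1 and 2 were close to each other and below all TGF-β1 glands, and control 3 was far below both. With array weights the difference was 0.58 ± 0.19 (SE), or 1.49-fold. It was 0.68 ± 0.18 without control 3, and 2.00 ± 1.03 with all arrays counted equally. Leaving out control 1 or control 2 and estimating the weights anew gave 2.54 and 2.57. Xbp1 has 1 probe set in the deposited table, which does not tell its spliced from its unspliced transcript.

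Creb3l1 (Entrez gene 26427, chromosome 2), the other CREB3 factor of the set, did not separate the groups. It was at 10.03, 9.26 and 10.02 in TGF-β1 glands 1 to 3, against 9.53, 10.16 and 6.69 in controls 1 to 3. The groups overlapped, and control 2 was the highest of the 6 arrays. The array-weighted difference was -0.20 ± 0.25 (SE) and the one without control 3 was -0.08 ± 0.32, while the unweighted difference over all 6 arrays was 0.98 ± 0.87. Its sign also turned after median centring (0.12) and with any single array other than control 3 left out of the weighted fit (0.15 to 1.66), so no direction is given. The values of control 3 for Creb3l1, Xbp1 and Ehf (6.69, 6.84 and 6.78) lay near the median of that array over all probe sets, 6.80.

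**Figure D3:**
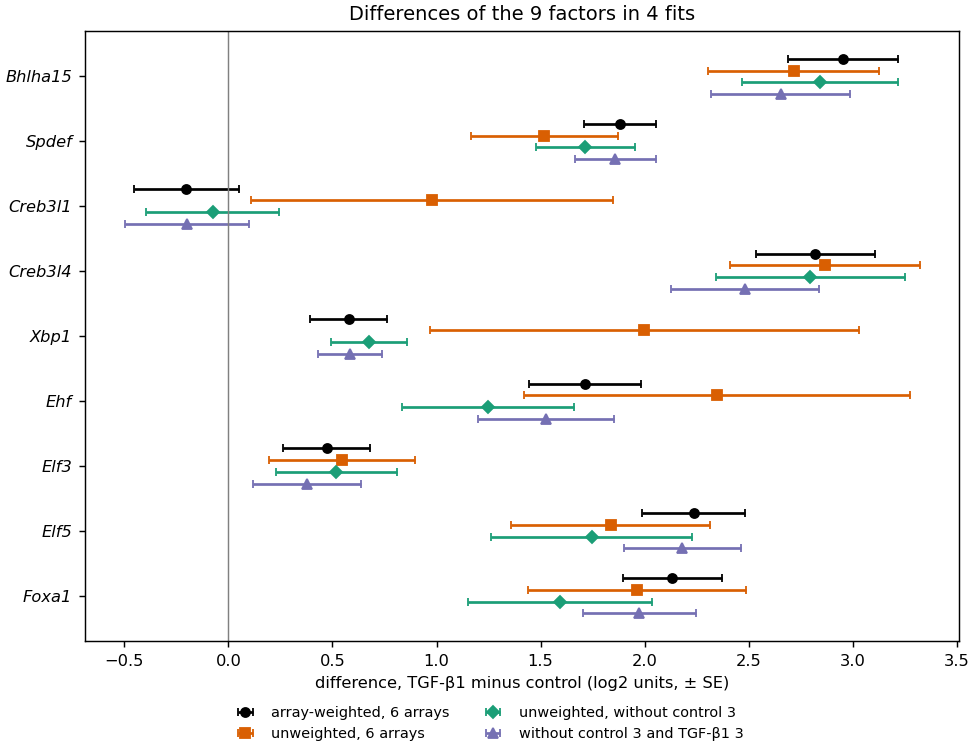
Difference between TGF-β1 and control in log2 units (x axis, bars are the SE) for the 9 factors (y axis) in 4 fits, 3 of which leave out or weigh down control 3. The unweighted fit of 6 arrays is the one that sets Xbp1 at 2.00 and Creb3l1 at 0.98, against 0.58 and -0.20 with array weights.

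Among the ETS factors of epithelia, Ehf and Elf5 were higher in TGF-β1 glands and Elf3 overlapped. Ehf (Entrez gene 13661, chromosome 2) was at 11.49, 11.73 and 10.78 in TGF-β1 glands 1 to 3, against 10.63, 9.54 and 6.78 in controls 1 to 3. The groups did not overlap, but TGF-β1 3 lay just above control 1. The array-weighted difference was 1.71 ± 0.27 (SE), and in the unweighted fit without control 3 it was 1.25 ± 0.41. Its size depended on single arrays: the weighted fit gave 0.69, 0.58 and 1.05 without TGF-β1 1, 2 or 3, and 3.37 and 2.83 without control 1 or 2.

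Elf5 (Entrez gene 13711, chromosome 2), known in mice for the milk-secreting cells of the mammary gland, was at 8.91, 9.34 and 7.82 in TGF-β1 glands 1 to 3, against 7.35, 6.54 and 6.67 in controls 1 to 3. The groups did not overlap, and TGF-β1 3 was again the lowest of the TGF-β1 arrays. The array-weighted difference was 2.24 ± 0.25 (SE), or 4.71-fold, and in the unweighted fit without control 3 it was 1.75 ± 0.48. Without TGF-β1 1 or 2 the weighted difference was 1.25 and 1.03.

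Elf3 (Entrez gene 13710, chromosome 1), a factor of simple epithelia, was at 7.47, 8.0 and 8.16 in TGF-β1 glands 1 to 3, against 7.67, 7.04 and 7.28 in controls 1 to 3. TGF-β1 1 lay below control 1, so the groups overlapped. The array-weighted difference was 0.47 ± 0.21 (SE), and it was 0.15, 0.07 and 0.21 without TGF-β1 2, TGF-β1 3 or control 2.

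Foxa1 (Entrez gene 15375, chromosome 12) was at 8.60, 8.49 and 7.40 in TGF-β1 glands 1 to 3, against 7.01, 6.13 and 5.45 in controls 1 to 3. The groups did not overlap, and TGF-β1 3 was the nearest to the controls, as it was for Ehf and Elf5. The array-weighted difference was 2.13 ± 0.24 (SE), or 4.39-fold, and in the unweighted fit without control 3 it was 1.59 ± 0.44. Without TGF-β1 1 or 2 the weighted difference was 0.96 and 1.02. Within the set, Foxa1 and Elf5 were the pair with the smallest difference in profile after Bhlha15 and Creb3l4, at 0.33 log2 units over 6 arrays and 0.19 without control 3.

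Of the genes nearest in profile, Cldn8, a tight junction protein, stood closest to Ehf at 0.10 log2 units, and closest again without control 3 at 0.07. Fgf1, a fibroblast growth factor, was the nearest to Elf5 at 0.27, and Aldoc, a glycolytic aldolase, the nearest to Foxa1 at 0.23. Without control 3 Fgf1 ranked 6 and Aldoc 2. Grtp1, a protein that acts on Rab GTPases, was the nearest to Elf3 at 0.06. For Xbp1 and Creb3l1 the nearest genes were Prxl2c at 0.13 and Jak1 at 0.18. All of these genes were low on control 3. Without that array Prxl2c was at 0.14 and ranked 125, and Jak1 was at 0.19 and ranked 118.

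Ehf and Elf5 are neighbours on chromosome 2, with no other measured gene between them in the RefSeq gene table of GRCm38.p6. Apip, a metabolic enzyme of the methionine salvage pathway on the far side of Ehf, differed by -0.21 ± 0.18 (adjusted p = 0.607), and Cat, which encodes catalase and lies on the far side of Elf5, by 0.13 ± 0.15 (adjusted p = 0.714) in the array-weighted fit. Over the 9 factors, 16 nearest measured neighbours were no members of the set; 0 of them rose, 1 fell and 15 did not pass in that fit (0 rose and 0 fell in the unweighted fit). The one that fell was Slc39a1, a zinc importer beside Creb3l4, at 8.16, 8.21 and 8.34 in TGF-β1 glands against 8.58, 8.73 and 8.62 in controls (difference -0.51 ± 0.13, adjusted p = 0.0443). It was not called in the 4-array fit.

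The sequence before the start of the transcript was searched for letters that the factors of this set and their relatives are known to bind, in order to see whether genes of the set carry each other's motifs. RefSeq promoter entries were found for 7 of the 9 genes, with 10 starts in all. The 250 bases before each start were searched on both strands for 8 motifs chosen after the expression values were known: CATATG and CAGCTG (E-boxes of basic helix-loop-helix factors), TGACGTG (the unfolded protein response element), TGACGTCA (the cAMP response element), CCAAT followed after 9 bases by CCACG (the endoplasmic reticulum stress element), CCGGAAG (ETS), TGTTTAC (forkhead) and GTCTAGAC (the Smad palindrome). TGACGTG differs from the first letters of TGACGTCA in its last letter, so that no match counts for both.

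A motif was found before 3 of the 7 genes, once each, and none was found before Bhlha15, Creb3l4, Elf3 or Xbp1. The share of all genes with any of the 8 motifs was not computed, so nothing is read from the 3. Single motifs were held by 0.166% to 14.1% of genes. Spdef held TGACGTG 201 bases before its start, a motif found in 1.85% of the 19143 promoters of measured genes. Foxa1 held the forkhead motif on the opposite strand, as GTAAACA, 141 bases before its start, where 2.6% of promoters hold it. Elf5 held CAGCTG 187 bases before the first of its 2 starts, where 12.4% of promoters and 14.1% of genes hold it. A match shows only that the letters are there. The 3 stretches with a match and that of Bhlha15, the member with the largest array-weighted difference, are given 5′ to 3′ on the strand of the gene (GRCm38.p6), with the matches in capitals.
Spdef, chr17:27728952-27729201, minus strand: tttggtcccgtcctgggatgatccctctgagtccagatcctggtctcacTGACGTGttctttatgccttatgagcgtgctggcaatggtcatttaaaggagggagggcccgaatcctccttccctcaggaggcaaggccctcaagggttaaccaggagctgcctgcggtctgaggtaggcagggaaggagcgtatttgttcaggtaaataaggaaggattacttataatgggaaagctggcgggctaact
Foxa1, chr12:57546112-57546361, minus strand: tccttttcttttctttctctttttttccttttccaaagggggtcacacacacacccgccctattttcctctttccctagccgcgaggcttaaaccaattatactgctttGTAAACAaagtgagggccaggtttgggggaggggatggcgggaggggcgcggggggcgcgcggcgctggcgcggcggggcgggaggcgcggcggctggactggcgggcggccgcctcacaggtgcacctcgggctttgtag
Elf5, chr2:103411848-103412097, plus strand: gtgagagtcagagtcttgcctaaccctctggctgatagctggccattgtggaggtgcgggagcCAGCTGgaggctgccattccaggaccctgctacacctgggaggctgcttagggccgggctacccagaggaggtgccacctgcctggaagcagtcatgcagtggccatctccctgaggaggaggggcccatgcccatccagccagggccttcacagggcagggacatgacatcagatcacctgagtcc
Bhlha15, chr5:144190036-144190285, plus strand: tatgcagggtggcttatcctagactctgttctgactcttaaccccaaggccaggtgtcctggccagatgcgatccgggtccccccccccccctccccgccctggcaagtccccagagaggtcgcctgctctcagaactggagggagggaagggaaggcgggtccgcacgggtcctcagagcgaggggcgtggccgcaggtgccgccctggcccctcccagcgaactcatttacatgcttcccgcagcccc

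Relatives of the 9 factors and genes tied to them were taken from lists that hold none of the 9. Of the 146 genes of these 8 lists, 15 rose and 6 fell in the array-weighted fit, where 3.45% and 3.44% of all genes did. In the 4-array fit the counts were 3 and 4, where 1.14% and 1.45% of all genes passed. After median centring of each array they were 1 and 1, and in the unweighted fit, with or without control 3, 0 and 0.

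Among 21 other ETS factors 1 rose, 0 fell and 20 did not pass (3 higher and 4 lower at an unadjusted p under 0.05), with a median difference of -0.13. The one was Etv1, a target and mediator of FGF signals, at 11.17, 11.75 and 10.27 in TGF-β1 glands 1 to 3, against 10.30, 8.75 and 9.61 in controls 1 to 3. Its groups overlapped at control 1, and its difference was 2.15 ± 0.35 (SE, adjusted p = 0.00405; adjusted p = 0.0820 in the 4-array fit). Among 20 other forkhead factors 1 rose, 0 fell and 19 did not pass (4 higher and 0 lower at an unadjusted p under 0.05), with a median of 0.15. It was Foxc1, a factor of embryonic mesenchyme and epithelium, whose difference was 0.78 ± 0.17 (adjusted p = 0.0161; adjusted p = 0.0669 in the 4-array fit).

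The 13 CREB3 relatives and sensors of the unfolded protein response had 0 risen and 2 fallen members (0 higher and 3 lower at an unadjusted p under 0.05), and their median was -0.11. Ddit3, a factor induced by prolonged stress, was at 9.44, 9.98 and 11.57 in TGF-β1 glands 1 to 3, against 11.26, 11.83 and 7.55 in controls 1 to 3. TGF-β1 3 and control 3 each lay apart from the rest of their group, and the unweighted difference was 0.12. With array weights Ddit3 fell by 1.91 ± 0.30 log2 units (adjusted p = 0.00374; adjusted p = 0.0232 in the 4-array fit). Atf6, a sensor of misfolded proteins, fell by 0.63 ± 0.16 (adjusted p = 0.0349; adjusted p = 0.0606 in the 4-array fit), and its unweighted difference was 0.31.

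Of 8 genes tied to Bhlha15 in secretory cells, 4 rose, 1 fell and 3 did not pass. Elapor1, an endosome and lysosome protein, was at 9.81, 8.97 and 9.16 in TGF-β1 glands 1 to 3, against 7.28, 5.59 and 6.17 in controls 1 to 3. Its groups did not overlap, and it rose by 3.45 ± 0.37 (SE, adjusted p = 4.84e-04; adjusted p = 0.0388 in the 4-array fit). Atp2c2, a calcium pump of the Golgi, rose by 1.32 ± 0.20 (adjusted p = 0.0032; adjusted p = 0.0373 in the 4-array fit).

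Rab3d, a small GTPase of secretory granules, was at 8.87, 7.68 and 8.63 in TGF-β1 glands, against 6.93, 6.98 and 8.63 in controls, so that control 3 reached the TGF-β1 arrays. It rose by 1.49 ± 0.28 (adjusted p = 0.00839; adjusted p = 0.103 in the 4-array fit). Cdkn1a, the p21 cell cycle inhibitor and also a p53 target, fell by 2.59 ± 0.39 (adjusted p = 0.00289; adjusted p = 0.0274 in the 4-array fit). It was at 8.32, 9.46 and 10.95 in TGF-β1 glands, against 11.03, 11.62 and 6.72 in controls, and its unweighted difference was -0.21. Control 3 lay below every other array for this gene.

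Of 6 genes tied to Spdef in mucous cells 2 rose, 0 fell and 4 did not pass (3 higher and 0 lower at an unadjusted p under 0.05). Agr2, a disulfide isomerase needed for mucin production in mice, was at 7.86, 6.62 and 10.55 in TGF-β1 glands 1 to 3, against 6.45, 5.67 and 5.63 in controls 1 to 3. TGF-β1 3 was the highest by far, and TGF-β1 2 lay just above control 1. Agr2 rose by 1.73 ± 0.44 (SE, adjusted p = 0.0386; adjusted p = 0.204 in the 4-array fit). Galnt12, which starts mucin-type sugar chains, rose by 1.40 ± 0.22 (adjusted p = 0.00359; adjusted p = 0.0608 in the 4-array fit).

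The genes that Xbp1 and Atf6 are known to activate in the endoplasmic reticulum were counted in the same way. Their median difference was 0.05 against 0.01 over all genes. Of 29 measured, 0 rose, 1 fell and 28 did not pass (3 higher and 5 lower at an unadjusted p under 0.05). Over all genes 3.45% rose and 3.44% fell, so the counts of this list lie near those shares. The 1 that fell was Dnajb9, a cochaperone, at 9.49, 9.63 and 10.67 in TGF-β1 glands, against 10.28, 10.61 and 5.53 in controls. TGF-β1 3 lay above all controls, and the difference was -0.89 ± 0.24 (SE, adjusted p = 0.0470; adjusted p = 0.0488 in the 4-array fit), against 1.13 in the unweighted fit. Of 28 genes of the COPII and COPI vesicle coats, which carry proteins between the endoplasmic reticulum and the Golgi, 1 rose, 0 fell and 27 did not pass (2 higher and 1 lower at an unadjusted p under 0.05). Sec23b, a COPII subunit, rose by 0.68 ± 0.15 (adjusted p = 0.0190; adjusted p = 0.121 in the 4-array fit).

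**Figure D4:**
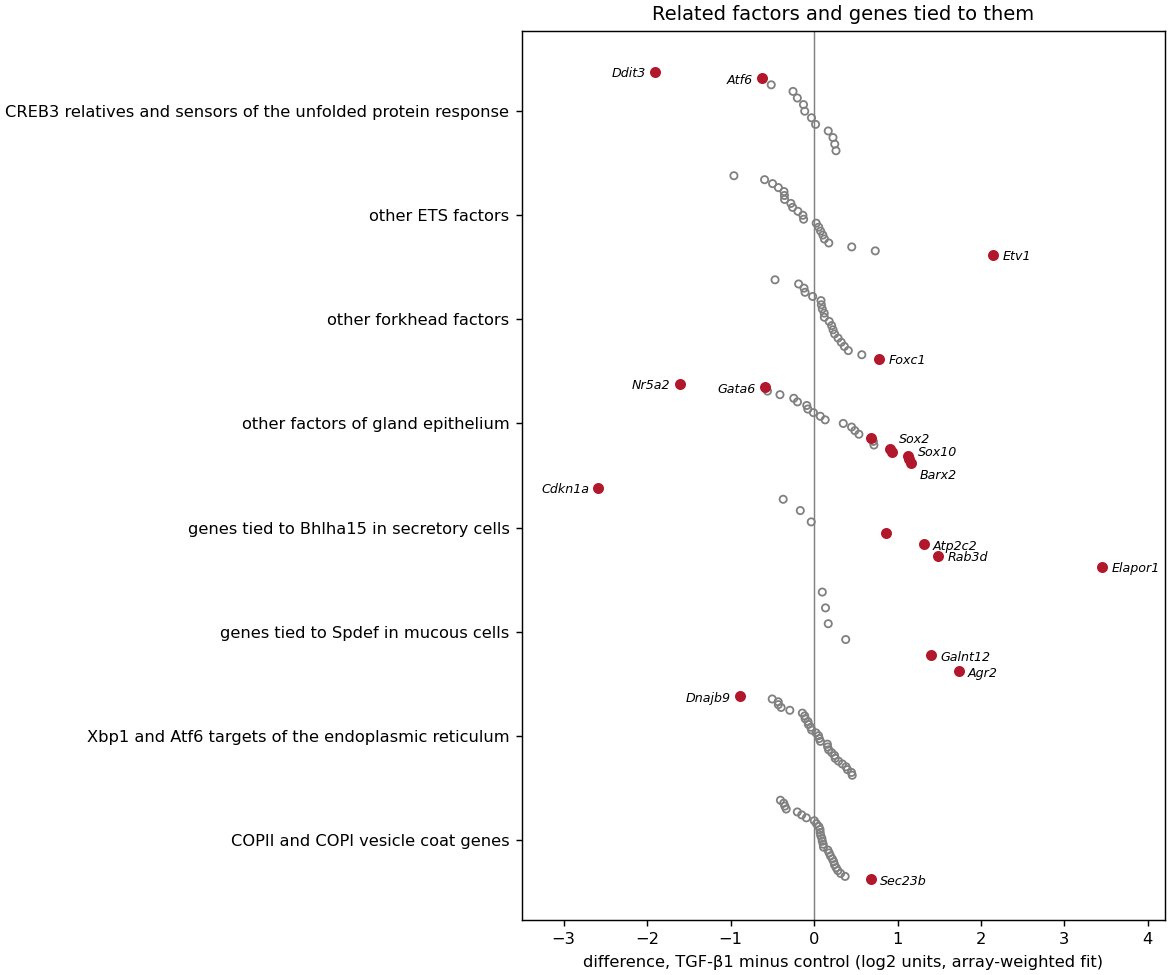
Array-weighted difference between TGF-β1 and control in log2 units (x axis) for each gene of 8 lists (y axis, genes of a list stacked by their difference). Filled points passed at an adjusted p under 0.05, and those that the naming rule took carry their name; 15 lie to the right of 0 and 6 to the left.

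Of 23 other factors of gland epithelium 6 rose, 2 fell and 15 did not pass, with a median of 0.35. Sox10, a factor of distal gland epithelium, rose by 1.13 ± 0.18 (adjusted p = 0.00367; adjusted p = 0.0301 in the 4-array fit), Barx2, a homeobox factor, by 1.16 ± 0.20 (adjusted p = 0.00508; adjusted p = 0.103 in the 4-array fit) and Sox2, a progenitor factor, by 0.91 ± 0.20 (adjusted p = 0.0169; adjusted p = 0.119 in the 4-array fit). Nr5a2, an orphan nuclear receptor known as a partner of acinar factors in the mouse pancreas, went the other way. It was at 6.66, 7.07 and 7.49 in TGF-β1 glands 1 to 3, against 8.11, 8.59 and 7.20 in controls 1 to 3, and only control 3 lay within the range of the TGF-β1 glands. Nr5a2 fell by 1.61 ± 0.19 (SE, adjusted p = 8.77e-04; adjusted p = 0.0256 in the 4-array fit). Gata6, a zinc finger factor, fell by 0.59 ± 0.15 (adjusted p = 0.0402; adjusted p = 0.172 in the 4-array fit).

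Most markers of acinar cells rose in the array-weighted fit, and a smaller part of those of epithelium did. Of 14 epithelial markers 5 rose, 0 fell and 9 did not pass (10 higher and 0 lower at an unadjusted p under 0.05), and none was at 0. Their summed level on the linear scale was 27382 to 36747 in TGF-β1 glands, against 3467 in control 3 and 18130 and 24886 in controls 2 and 1. Of 9 acinar markers 8 rose and 0 fell, with a summed level of 20489 to 27248 in TGF-β1 glands and 1623 to 2983 in controls. Of 11 mesenchymal markers 0 rose and 2 fell (0 higher and 6 lower at an unadjusted p under 0.05). Their sums were 13037, 11993 and 19727 in TGF-β1 glands 1 to 3, against 16196, 19662 and 2342 in controls 1 to 3. In the 4-array fit 0 epithelial and 0 mesenchymal markers passed, and 6 acinar markers rose. The neuronal and glial list had 3 of 4 risen and 0 in the 4-array fit. The endothelial list had 1 of 6 fallen in both fits (Kdr, a receptor of vascular growth factor, by 1.35 ± 0.19 with array weights), and 0 of 4 blood and 0 of 6 skeletal muscle markers passed (1 and 0 at an unadjusted p under 0.05).

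Each factor was therefore also set against the mean of the 14 epithelial markers on the same array. On this scale control 3, with its low marker values, stood apart for most factors, and it is left out of the values that follow. Bhlha15 was at -1.12, -1.97 and -1.36 log2 units relative to the markers in TGF-β1 glands, against -3.69 and -3.88 in controls 1 and 2, a difference of 2.30. Creb3l4 was at -0.51, -1.47 and -0.43 in TGF-β1 glands, against -2.96 and -3.15 in those controls, a difference of 2.25. Spdef was at -0.56, -0.92 and -1.56 in TGF-β1 glands, against -2.41 and -1.96, a difference of 1.17. With control 3 left out, these 3 were the factors whose groups stayed apart with the epithelial markers taken off. The share of all genes that stay apart on this scale was not computed, so nothing is read from that count.

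For the other 6 the groups overlapped on that scale. Elf5 differed by 1.2, Foxa1 by 1.05 and Ehf by 0.70, and for each TGF-β1 3 lay between controls 1 and 2. Xbp1 differed by 0.13, Elf3 by -0.03 and Creb3l1 by -0.62. With control 3 kept in, none of the 9 had groups that stayed apart, and the differences of Bhlha15, Creb3l4 and Spdef were 1.30, 1.45 and 0.10. How far the amount of acinar cells accounts for any of these values was not tested.

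**Figure D5:**
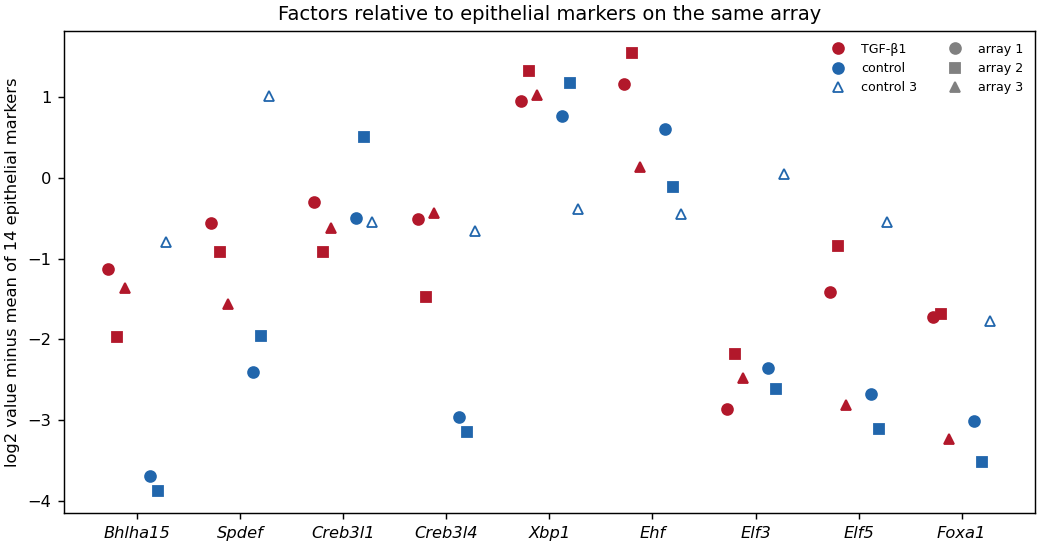
Log2 value of each factor minus the mean log2 value of 14 epithelial markers on the same array (y axis), TGF-β1 in red left of control in blue; symbols are arrays 1 to 3 and the open triangle is control 3. For Bhlha15, Creb3l4 and Spdef all TGF-β1 arrays lie above controls 1 and 2, and control 3 lies among or above the TGF-β1 arrays.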

How the data were processed

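The authors deposited 1 log2 value for each probe set and array, and the submitters' processing notes name RMA, without a version or a genome build. Of 22206 probe sets, 19572 had 1 gene symbol in the platform annotation, and 0 of the 9 factors had more than 1. Per gene the probe set with the highest mean was kept, giving 19505 genes. No filter was applied, no measure of background was used, and arrays carry no read depth, so their number limits the precision. Groups (3 arrays each, from the labels) were set against each other in limma 3.58.1 (R 4.3.3) by lmFit with arrayWeights, default eBayes, two-sided, Benjamini-Hochberg adjustment over all genes. The weight estimation stopped before its tolerance was reached and the weights are then taken as known, which makes p-values too small. The fits were also run on simulated data with random scatter, without the compressed values seen on control 3. That run therefore does not show how the fits handle such an array.

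The members, gene lists and tests were chosen with earlier results of these data known. Named genes are the 9 factors; per list up to 3 per direction of smallest p that passed, or the 1 of smallest p; the 3 nearest profiles per factor (predicted genes, receptors of smell and microRNAs left out); and the nearest measured neighbours. Of these, the text names the first 1 to 3 profiles. Epithelial markers were subtracted as their mean log2 value. Alternatives were other weights, each array left out, scaling, a filter, the prior, a replicate block and a stricter threshold.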

Additional observations from a re-analysis of the deposited data

How the results depend on the processing

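The differences of 8 of the 9 factors stayed above 0 in the 14 alternative fits that could change them. Of the 126 member values, 102 kept their sign and moved by less than 1 SD of that gene's TGF-β1 arrays. Another 17 kept their sign and moved further, and 7 changed sign. Creb3l1 was the exception: its difference of -0.20 became 0.98 without array weights, 0.12 after median centring, and -0.065 to 1.66 with each array left out in turn. Elf3 was at -0.87 with the epithelial markers subtracted and at -0.028 with control 3 left out as well, an alternative chosen after the data were seen. The median of the 9 was 0.96 to 2.54 with each array left out, against 1.88. Counts of called genes depended on the fit. The array-weighted fit called 1342 genes, of which 15 risen and 6 fallen were on the 8 lists. Leaving out single arrays gave 0 to 544 genes, 0 to 5 risen and 0 to 4 fallen list genes, and the highest of each came without control 3. Without weights, with or without control 3, there were 0, 0 and 0. Without control 3 and TGF-β1 3 there were 505, 3 and 4. Weights by the gene-by-gene method gave 874, 11 and 3, quantile normalization 486, 6 and 3, median centring 283, 1 and 1, and a threshold of 0.01 gave 538, 7 and 3. Without the dimmest genes there were 4349, 31 and 24. The cause of these shifts was not tested. With the replicate number as a block there were 2502, 20 and 13, but same-numbered arrays did not deviate together (r of -0.066, -0.0078 and -0.05), so the numbers were not used to pair samples. With 3 arrays a group, 1 of them set apart, small differences cannot be settled, and no background measure was at hand for the dim probe sets.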
